A study of Homo sapiens with 6 samples.

Results

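MYC and 35 factors of ribosome production were examined in HT29, a human colon adenocarcinoma cell line, as RNA polymerase I and its initiation factors, proteins of small nucleolar ribonucleoprotein particles (snoRNPs) and factors of rRNA processing and subunit assembly. A gene was included where the platform annotation gave it at least 1 probe set that names no other gene. This held for 31 of the 36 genes, with 64 probe sets, among 19775 genes measured in the series. NOP56, DKC1, BOP1, PPAN and GNL3 had no such probe set and are not described. The samples were 3 labelled as treated with NS398, a selective inhibitor of cyclooxygenase-2, and 3 labelled as control, each on 1 array. According to the methods of the study, the cells were treated for 3 days in serum-free medium and DMSO, the solvent of the drug, was the control, so both groups lacked serum. By the same methods, the treated arrays came from the highest dose of NS398 that the study used. All samples are of this 1 line. They are termed biological replicates in the methods, with no account in the labels of separate cultures, so a p-value here speaks only for the spread seen between these arrays.

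The nucleolus is the site where RNA polymerase I transcribes the long precursor that yields 18S and 28S rRNA. The precursor is then modified under the guidance of snoRNPs, cleaved, folded and joined with ribosomal proteins by a large set of assembly factors, those of the small subunit in a particle known as the processome. MYC, a transcription factor that is often raised in colon carcinoma through Wnt signalling, binds E-box DNA together with its partner MAX and is known to activate many genes of this pathway.

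Directions follow the deposited labels. They run opposite to those given by the study for the transcripts in its list of increases, and "NS398" below means the arrays labelled so. Ribosome biogenesis transcripts were higher in these arrays by modest amounts. Of 31 measured genes, 28 had a difference above 0 on the log2 scale (90.3%, against 54.7% of all genes), with a median of 0.38 against 0.07 for all genes. By limma with a variance trend and Benjamini-Hochberg adjustment over all probe sets (adjusted p under 0.05, hereafter passing the test), 9 genes rose and 0 fell, 29% of those measured. Over all genes 5.23% rose and 4.85% fell (10.1% in either direction), and over genes with a mean log2 signal above 7, as all 31 have, 9.06% rose and 8.66% fell. The increases were RRP12, DDX21, RRP9, UTP20, POLR1B, NIP7, WDR12, WDR43 and POLR1E. RRP12 alone reached 2-fold. MYC itself did not pass.

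In 22 of the 31 genes every NS398 array lay above every control array, 71% against 17.2% of all genes and 23.8% of genes above a mean log2 signal of 7. UBTF was the 1 gene with all NS398 arrays below all controls, which was so in 13.5% of all genes and 21.3% of those above 7. The lowest signal fell in a control array for 30 of the 31 genes and the highest in an NS398 array for 27. Scaling limits these counts: with each array centred on its median signal, the median of all genes moved from 0.07 to -0.06 and that of the 31 genes from 0.38 to 0.26, and RRP12, DDX21 and RRP9 were the only genes that passed. Plain limma, with neither variance trend nor robust estimation, called 0 of the 31 genes (12 had an unadjusted p under 0.05).

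**Figure D1:**
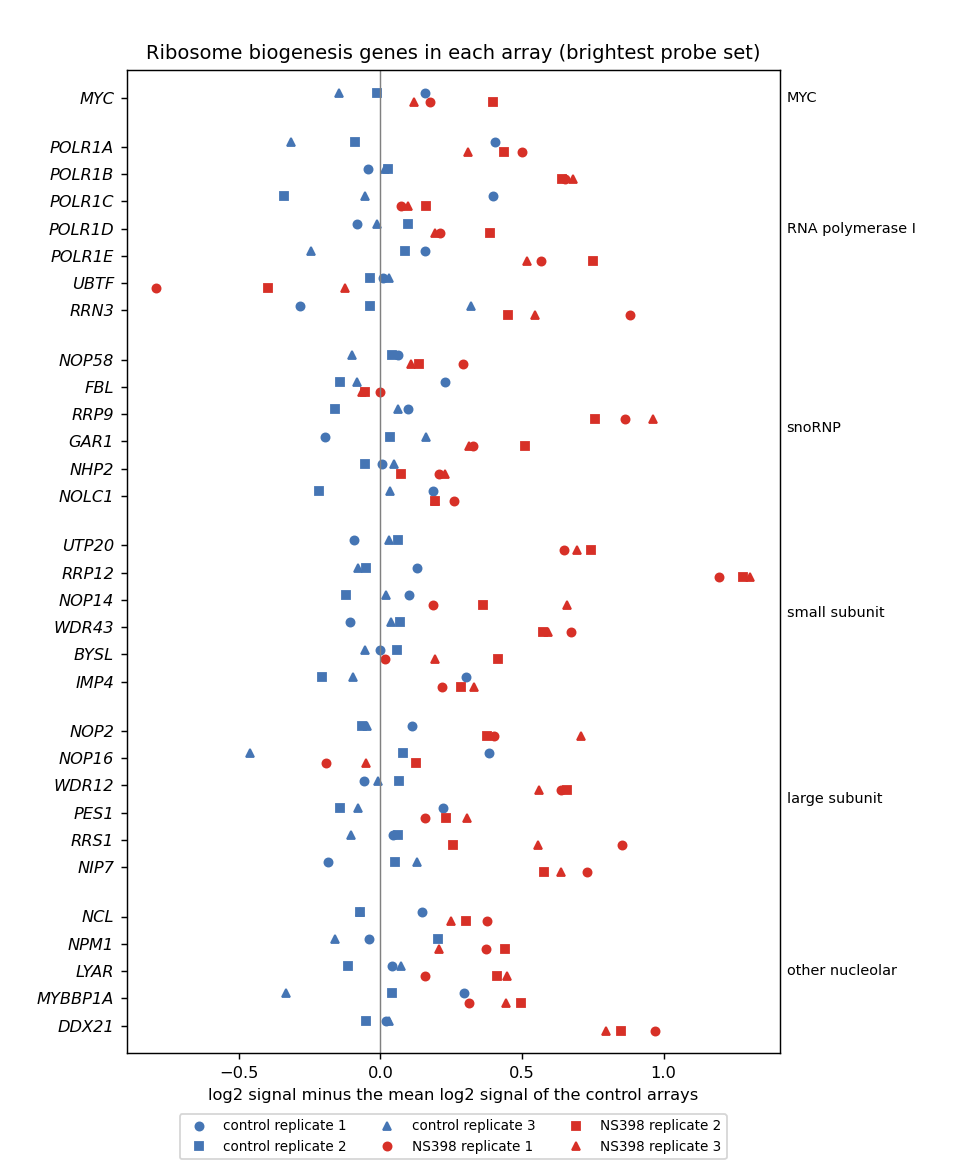
Log2 signal of the 31 genes in each of the 6 arrays, as the difference from the mean of the 3 control arrays, taking the brightest probe set for each gene (blue, control; red, NS398; symbols, replicate number of the label). For RRP12, DDX21 and RRP9 the red points lie far to the right of the blue ones, and for UBTF they lie to the left.

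As the members share a pathway that MYC is known to control, their promoters were searched for the E-box CACGTG, which reads the same on both strands. RefSeq promoter windows (GRCh38.p14), 250 bases before to 50 after the start of the gene, were matched for 29 of the 36 genes. The E-box was found in 10 of these 29 windows (34.5%), in 26.7% of 101 windows of other ribosome biogenesis genes and in 8.88% of 15842 windows of protein-coding genes. It was present in 3 of the 7 windows of genes that rose (42.9%) and in 7 of 18 of measured genes that did not pass (38.9%), so the shares in both were close. Of 11 occurrences, 10 began between 10 bases before and 35 bases after the start of the gene. A related hexamer, CACGCG or CGCGTG on the other strand, whose forms on either strand can overlap, was found in 9 of the 29 windows (31%), in 30.7% of windows of other ribosome biogenesis genes and in 14.8% of those of protein-coding genes. It was present in 1 of the 7 windows of genes that rose (14.3%), that of DDX21, and in 8 of 18 of measured genes that did not pass (44.4%). A match describes the letters of a window and is not evidence of binding. The 11 sites are shown with up to 10 bases on each side, 5′ to 3′ along the gene, with the E-box in capitals:
FBL (chr19:39846358-39846383, minus strand): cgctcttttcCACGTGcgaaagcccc
RRP9 (chr3:51941894-51941919, minus strand): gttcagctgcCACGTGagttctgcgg
UTP20 (chr12:101280085-101280110, plus strand): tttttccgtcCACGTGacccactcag
NOP14 (chr4:2963376-2963401, minus strand): cgcggcccggCACGTGtcttagggta
WDR43 (chr2:28894660-28894685, plus strand): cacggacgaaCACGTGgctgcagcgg
BYSL (chr6:41921517-41921542, plus strand): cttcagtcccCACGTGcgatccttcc
IMP4 (chr2:130342684-130342709, plus strand): ggtcctaagtCACGTGtgacattctg
IMP4 (chr2:130342902-130342927, plus strand): ctcccggaccCACGTGgaagcggcac
NOP2 (chr12:6568242-6568266, minus strand): gtccggattgCACGTGgagggccgc
PES1 (chr22:30591882-30591907, minus strand): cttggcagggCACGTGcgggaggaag
MYBBP1A (chr17:4555342-4555367, minus strand): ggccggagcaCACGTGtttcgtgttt

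Whole windows are shown for the pair of genes with the largest increases among those with a window, DDX21 without a CACGTG and RRP9 with 1, with both hexamers in capitals:
DDX21 (chr10:68955920-68956219, plus strand): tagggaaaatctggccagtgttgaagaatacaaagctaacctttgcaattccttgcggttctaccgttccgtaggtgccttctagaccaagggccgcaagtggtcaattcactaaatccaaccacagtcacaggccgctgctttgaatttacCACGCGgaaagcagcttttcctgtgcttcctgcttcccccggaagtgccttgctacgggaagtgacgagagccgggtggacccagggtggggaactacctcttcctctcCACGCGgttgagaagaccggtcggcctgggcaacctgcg
RRP9 (chr3:51941855-51942154, minus strand): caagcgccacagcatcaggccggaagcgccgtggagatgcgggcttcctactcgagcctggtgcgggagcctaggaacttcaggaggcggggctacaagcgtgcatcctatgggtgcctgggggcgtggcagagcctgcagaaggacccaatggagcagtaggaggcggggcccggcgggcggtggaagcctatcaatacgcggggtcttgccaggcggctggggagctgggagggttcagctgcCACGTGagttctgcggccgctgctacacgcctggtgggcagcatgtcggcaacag

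MYC was bright in all samples. Its single probe set had signals of 20280.0, 18011.1 and 16415.4 in the control arrays and 20513.2, 23942.1 and 19733.3 in the NS398 arrays. Control replicate 1 lay above NS398 replicate 3, so the groups overlapped. The difference of 0.23 ± 0.11 (SE, log2, n = 3 per group) did not pass (limma adjusted p = 0.271), and over the 15 alternative settings it lay between 0.11 and 0.31 with an adjusted p of 0.0977 or more. In bulk RNA of a fixed input, fewer cells of a kind and less RNA per cell cannot be told apart.

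The RNA polymerase I group, 7 genes with a median difference of 0.42, held 2 increases (28.6%, beside 29% of the 31 genes). Over all genes 5.23% rose, and 9.06% of those above a mean log2 signal of 7. POLR1B, the second-largest subunit of the enzyme, had signals of 1155.5, 1213.0 and 1203.5 in control and 1872.1, 1857.2 and 1908.1 in NS398 arrays. The replicates of each group lay close together and the groups were far apart, with a 1.58-fold increase (0.66 ± 0.11, limma adjusted p = 0.00533). A further probe set of POLR1B rose as well (0.62) and its 2 dimmer ones did not pass (0.32 and 0.40). POLR1E, which forms a heterodimer on the polymerase that aids initiation, had 917.8, 874.4 and 693.6 in control and 1219.3, 1385.1 and 1177.1 in NS398 arrays. Its groups were separate (0.61 ± 0.15, adjusted p = 0.0338), but this was the least stable of the increases, passing in 6 of 15 alternatives, only 1 of them among the 6 that leave out an array. The dimmer probe sets of POLR1E, with mean log2 signals under 7, differed by 0.33 and -0.10 with overlapping groups. The mean over all 3 did not pass (0.28, limma adjusted p = 0.512).

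RRN3, the factor that joins RNA polymerase I to its promoter, had 1139.7, 1353.9 and 1731.0 in control and 2557.5, 1897.5 and 2026.2 in NS398 arrays. Every NS398 value was above every control value, yet the control replicates were widely spread and the difference of 0.63 ± 0.17 missed the threshold (limma adjusted p = 0.0535). RRN3 has closely alike pseudogenes, and its probe set could read them too. POLR1A, the largest and catalytic subunit, differed by 0.42 ± 0.20 in its brightest probe set (adjusted p = 0.2996) and by 0.03 and -0.17 in the other 2, with overlapping groups in the brightest. POLR1C and POLR1D, a pair of subunits shared with RNA polymerase III, differed by 0.11 ± 0.17 (adjusted p = 0.806) and 0.26 ± 0.09 (adjusted p = 0.128). The direction of POLR1C turned in 2 of 15 alternatives, and that of POLR1D in 0. The dimmer probe set of POLR1C (0.445) and the other 2 of POLR1D (0.447 and 0.361) had no overlap but did not pass. The mean over all 3 of POLR1D did (0.357, limma adjusted p = 0.0415).

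UBTF, the HMG-box protein that coats active rDNA and is needed for RNA polymerase I transcription, had a difference of the opposite sign. Its brightest probe set had 1085.7, 1051.7 and 1103.3 in control and 624.0, 820.6 and 990.3 in NS398 arrays. The control replicates were tight, the NS398 replicates were spread, and NS398 replicate 3 lay just under the controls. The difference of -0.44 ± 0.17 did not pass (limma adjusted p = 0.189, unadjusted p = 0.0268), nor did it in any of the 15 alternatives, where it ranged from -0.59 to -0.26. All 5 probe sets of UBTF had a difference below 0 (-0.58 to -0.05), and UBTF was the only 1 of the 17 genes with several probe sets for which this was so. However, 0 of the 5 passed, and in all but the brightest the groups overlapped. The dimmest was near background, with signals of 6.8 to 32.3 (-0.05 ± 0.92).

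Of 6 snoRNP genes, with a median of 0.20, only RRP9 passed (16.7%, where 5.23% of all genes rose and 9.06% of those above a mean log2 signal of 7). RRP9, a protein particular to the U3 snoRNP that the first cleavages of the precursor need, had signals of 728.6, 608.4 and 711.2 in control and 1237.2, 1150.6 and 1325.8 in NS398 arrays. This is a 1.82-fold increase with no overlap (0.86 ± 0.14, limma adjusted p = 0.00379), and it held in 14 of 15 alternatives, all but plain limma. Its window holds an E-box across the start of the gene (shown above).

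None of the core proteins of the modification guides measured in this group passed, and NOP56 and DKC1 had no probe set of their own. Fibrillarin (FBL), the methyltransferase of box C/D snoRNPs, had 15376.0, 11874.8 and 12388.7 in control and 13123.5, 12638.5 and 12556.0 in NS398 arrays. These ranges overlapped almost wholly (-0.04 ± 0.11, limma adjusted p = 0.896), and the direction turned in 1 of 15 alternatives. FBL too has an E-box near its start. NOP58, its partner in the same particle, differed by 0.18 ± 0.10 (adjusted p = 0.398). In the H/ACA particles, which guide pseudouridylation, GAR1 differed by 0.38 ± 0.13 (adjusted p = 0.113) and NHP2 by 0.17 ± 0.09 (adjusted p = 0.339). NOLC1, a chaperone of snoRNPs, differed by 0.22 ± 0.11 in its brightest probe set (adjusted p = 0.349). Its dimmer ones differed by 0.20 and 0.05, with overlapping groups. In NOP58, GAR1, NHP2 and the brightest probe set of NOLC1 every NS398 array was above every control array, but by less than the test could call. Such separation was seen in 17.2% of all genes and 23.8% of those above a mean log2 signal of 7.

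Factors of rRNA processing and assembly, 17 of the 31 measured genes, held 6 of the 9 increases, with a median of 0.42. The share that rose was 35.3%, beside 29% of all 31 genes. Over all genes 5.23% rose, and 9.06% of those above a mean log2 signal of 7. The small subunit group had 3 increases in 6 genes (50%). RRP12, which acts in the maturation and export of pre-ribosomes, had signals of 975.6, 862.9 and 846.2 in control and 2047.8, 2167.7 and 2209.0 in NS398 arrays. Every NS398 value was more than double any control value, a 2.40-fold increase (1.26 ± 0.12, limma adjusted p = 1.83e-04), the largest of the 31 genes. A dimmer probe set rose as well (0.78), while 2 others near a log2 signal of 7 had -0.32 and -0.03, the dimmest did not pass, and the mean over all 5 differed by 0.51, which did not pass (adjusted p = 0.256). These probe sets disagree on the size and direction of the RRP12 difference.

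UTP20, a large scaffold of the small subunit processome, had 538.5, 599.7 and 585.6 in control and 900.0, 960.8 and 927.8 in NS398 arrays. The groups were well apart (0.70 ± 0.14 or 1.62-fold, limma adjusted p = 0.0117), and the window of UTP20 has an E-box that begins 10 bases before the gene. WDR43, a component of the processome that also links it to rDNA transcription, had 1027.1, 1161.0 and 1136.5 in control and 1763.9, 1646.7 and 1666.8 in NS398 arrays. It too rose without overlap (0.61 ± 0.12, adjusted p = 0.0112). Without NS398 replicate 2 neither passed (limma adjusted p = 0.0725 for UTP20 and 0.0543 for WDR43), so that RRP12 alone of this group did, and without NS398 replicate 1 WDR43 did not (0.0610). NOP14, BYSL and IMP4, 3 further factors of the small subunit, had E-boxes as well but did not pass, with differences of 0.40 ± 0.14, 0.21 ± 0.13 and 0.28 ± 0.14 (adjusted p = 0.131, 0.462 and 0.315). NOP14 had no overlap between groups, and BYSL and IMP4 did.

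The large subunit group had 2 increases in 6 genes (33.3%, beside 29% of the 31 genes) and a median of 0.53. Over all genes 5.23% rose, and 9.06% of those above a mean log2 signal of 7. WDR12, which works with PES1 and BOP1 in 1 complex, had signals of 2670.6, 2912.5 and 2767.7 in control and 4328.5, 4393.1 and 4103.2 in NS398 arrays. The spread within groups was small beside the 1.54-fold increase (0.62 ± 0.10, limma adjusted p = 0.00339). Its other 2, dimmer probe sets did not pass (0.54 and 0.27), nor did the mean over all 3 (0.47, adjusted p = 0.160). Its partner PES1 had 1642.8, 1278.5 and 1335.2 against 1571.8, 1654.5 and 1741.1, which overlapped (0.23 ± 0.13, adjusted p = 0.403) and turned sign in 1 of 15 alternatives, the mean with its dim probe set, and BOP1 had no probe set of its own. NIP7, which is needed for 60S subunit assembly, had 1030.0, 1213.8 and 1281.0 in control and 1938.6, 1746.1 and 1819.5 in NS398 arrays. It rose 1.57-fold (0.65 ± 0.13, adjusted p = 0.0119), and its other probe set gave 0.65 and missed the threshold (adjusted p = 0.0546). Without NS398 replicate 1 NIP7 did not pass (limma adjusted p = 0.0650).

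A pair of large subunit genes lay just outside the threshold. NOP2, an rRNA cytosine methyltransferase, had 1351.6, 1194.4 and 1211.0 in control and 1651.4, 1623.3 and 2042.4 in NS398 arrays (0.50 ± 0.13, limma adjusted p = 0.0519). RRS1, which brings the 5S particle into the precursor, had 1243.8, 1259.4 and 1123.4 against 2179.4, 1440.2 and 1776.5 (0.55 ± 0.16, adjusted p = 0.0621). Neither overlapped between groups, and they passed in 6 and 3 of 15 alternatives. NOP16 had no direction of its own: its brightest probe set differed by -0.04 ± 0.19 with overlapping groups (adjusted p = 0.946). Another bright one differed by 0.22 without overlap and did not pass (limma adjusted p = 0.347). A dim pair, with mean log2 signals of 5.69 and 4.70, differed by 0.56 ± 0.47 and 1.10 ± 1.07. The sign of NOP16 turned in 5 of 15 alternatives.

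Transcripts of all 5 measured nucleolar proteins with broader roles were above control in every NS398 array. Of these DDX21 passed (20%, where 5.23% of all genes rose and 9.06% of those above a mean log2 signal of 7). Every NS398 array was above every control array in 17.2% of all genes and 23.8% of those above a mean log2 signal of 7. DDX21, an RNA helicase that acts in rDNA transcription and rRNA processing, had signals of 7640.1, 7263.4 and 7689.3 in control and 14759.8, 13575.3 and 13091.1 in NS398 arrays. The 1.83-fold increase (0.87 ± 0.09, limma adjusted p = 2.61e-04) was nearly the same in its other probe set (0.89), and it held in 14 of 15 alternatives, all but plain limma. Its window has no CACGTG and is the only 1 among the genes that rose with CACGCG, at 2 places.

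Nucleolin (NCL), an abundant RNA-binding protein of the nucleolus, had 16473.9, 14181.1 and 14152.9 in control and 19355.6, 18373.4 and 17717.7 in NS398 arrays. The groups were separate, by 0.31 ± 0.09 (limma adjusted p = 0.0724). Nucleophosmin (NPM1), a chaperone of ribosome export, had 33901.7, 40171.1 and 31186.4 against 45130.8, 47315.0 and 40307.5 in its brightest probe set, where the highest control lay just under the lowest NS398 array (0.34 ± 0.10, adjusted p = 0.0825). Its other 2 probe sets passed (0.39 and 0.58). NPM1 has many processed pseudogenes that these probe sets could also read. LYAR, a nucleolar protein of growing cells, differed by 0.34 ± 0.13 (adjusted p = 0.187), with a dimmer probe set that passed (0.55). MYBBP1A, a repressor of rDNA transcription, differed by 0.42 ± 0.17 (adjusted p = 0.211).

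**Figure D2:**
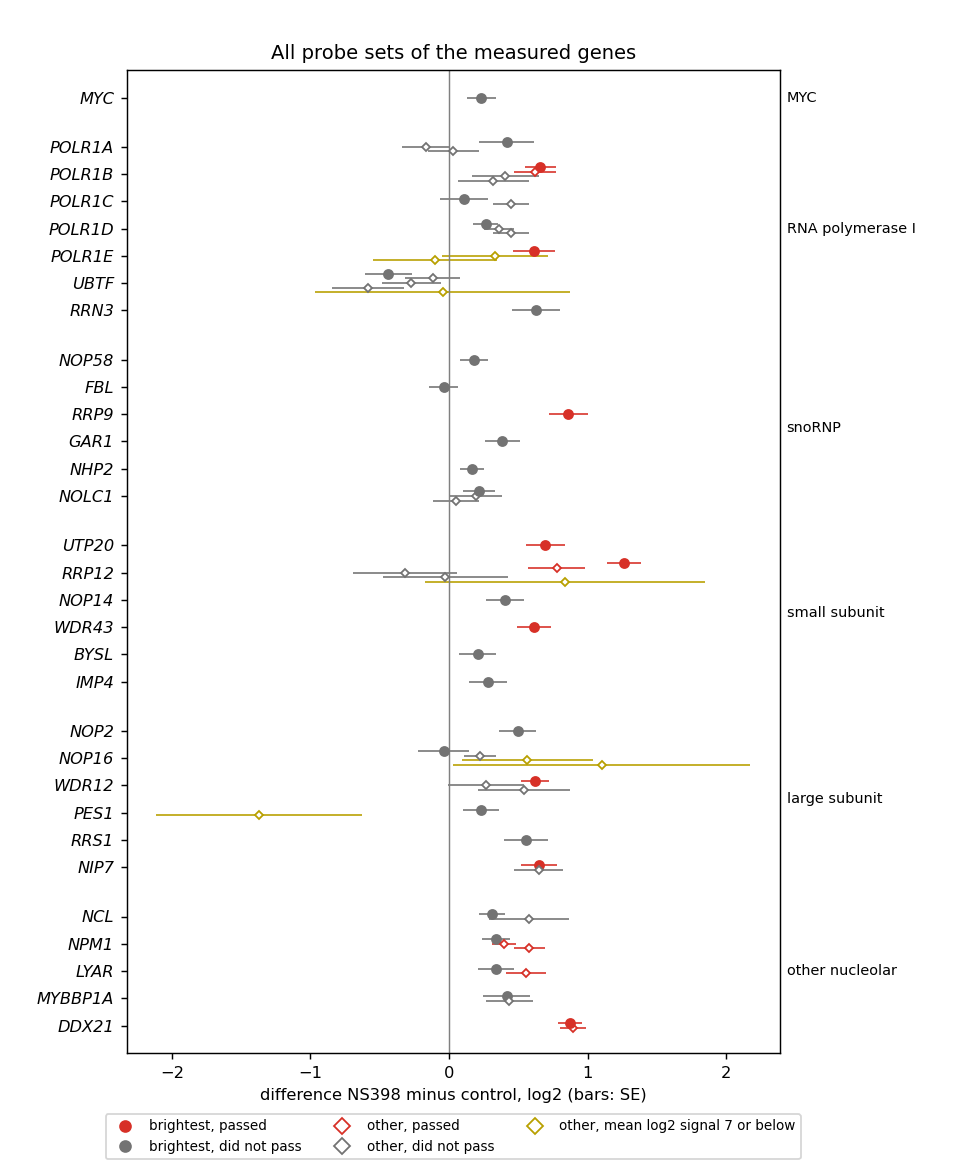
Difference NS398 minus control (log2) of all 64 probe sets of the 31 genes, with the SE of the fit as bars. Filled circles are the brightest probe set of a gene, diamonds the others, red marks those that passed and yellow those with a mean log2 signal of 7 or below. The 5 longest bars belong to yellow points.

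Over all 64 probe sets, 52 had a difference above 0, 15 rose and 0 fell, where 3.26% of all probe sets on the array rose and 3.17% fell (6.43% in either direction). Those shares take in dim probe sets, whereas 57 of the 64 had a mean log2 signal above 7. Of these 57, 48 were above 0. Among the 17 genes with several probe sets, POLR1A, POLR1E, RRP12, NOP16 and PES1 had probe sets of both signs. A probe set reads the 3′ part of a transcript, so splice forms and other transcript ends can part them.

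In the wider pathway most genes that passed rose. Of 112 other measured ribosome biogenesis genes, 25 rose and 1 fell, with a median of 0.21, and 110 had a mean log2 signal above 7. The share that rose was 22.3%, against 5.23% of all genes and 9.06% of all those above 7. Whether this share differs from that of the 31 genes was not tested. Among 43 other small subunit factors 11 rose and 0 fell (median 0.28), and 7 rose when NS398 replicate 1 or 2 was left out. RIOK2, a kinase of late pre-40S particles, rose from a mean signal of 509.5 to 944.5 (0.89 ± 0.15, limma adjusted p = 0.00499). UTP15 and HEATR1, which belong with WDR43 to the module of the processome tied to rDNA transcription, rose by 0.88 and 0.83, and UTP14A by 0.69.

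Among 43 other large subunit factors 12 rose and 0 fell (median 0.26). This count was 4 without NS398 replicate 1 or 2, 5 without NS398 replicate 3, 6 without control replicate 3 and 7 without control replicate 2. NOC3L rose from 1473 to 2745 (0.90 ± 0.13, limma adjusted p = 0.00227) and RRP1 by 0.89. RPF2, the partner of RRS1 in bringing in the 5S particle, rose from 2176 to 3800 (0.80 ± 0.10, adjusted p = 7.64e-04), and RSL24D1 by 0.69. Of 13 exosome genes, the nuclease that trims rRNA ends, EXOSC8 (0.62) and EXOSC5 (0.51) rose, with a list median of 0.05 that turned to -0.07 with median centring. Only 1 exosome gene rose when any array other than control replicate 1 was left out. Of 13 other RNA polymerase I genes 0 rose and POLR2E, a subunit shared by the 3 nuclear polymerases, fell from 3821 to 2310 (-0.73 ± 0.13, adjusted p = 0.00619), with a list median of -0.04. Of this list 7 had an unadjusted p under 0.05, 0 passed plain limma, and 2 rose without control replicate 1. With median centring the number of the 112 genes that passed went from 26 to 6. It fell to 13 when NS398 replicate 1 or 2 was left out, to 15 when NS398 replicate 3 was left out, and to 16 when control replicate 3 was left out.

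**Figure D3:**
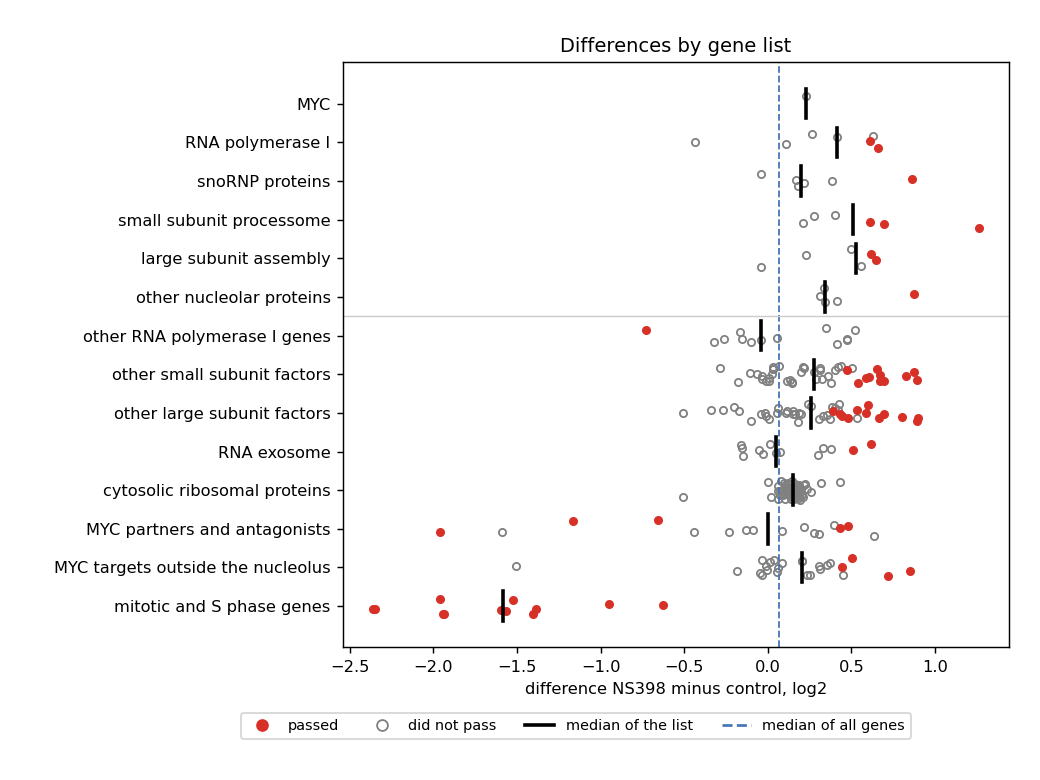
Difference NS398 minus control (log2) of each gene by list, 1 point a gene, red where it passed and grey where it did not, with the list median as a black bar and the median of all genes (0.07) as a dashed line. The assembly factors reach to the right, the ribosomal proteins sit close to 0.15, and all 12 mitotic and S phase genes lie to the left.

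Genes of the ribosomal proteins themselves, whose products the assembly factors join to rRNA, did not pass. Of 52 measured genes 51 had a difference above 0 (98.1%) and 0 passed (limma with variance trend, 4 had an unadjusted p under 0.05, and 0 by plain limma). Their median of 0.15 became 0.03 with median centring and turned to -0.01 with quantile normalisation, and without control replicate 2 the test called 5 of them higher. Most are among the brightest on the array, with a median signal of 47590, and 25 of the 77 listed had no probe set of their own.

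Partners and antagonists of MYC moved in both directions, with 2 of 16 higher (12.5%), 3 lower (18.8%) and a median of 0.00. Over all genes 5.23% rose and 4.85% fell, and above a mean log2 signal of 7 9.06% rose and 8.66% fell. MXD3, an antagonist of the MAD family that is expressed in cycling cells, fell from 544.4 to 140.1 (-1.96 ± 0.25, limma adjusted p = 9.60e-04). CIP2A, which stabilises MYC protein, fell from 305.7 to 136.2 (-1.17 ± 0.22, adjusted p = 0.00998), and MLXIP by 0.66 on the log2 scale. MYCBP2 (0.48) and MLX (0.43), a MAX-like partner of the MXD and MLXIP proteins, rose. With median centring 0 of the list rose and 3 fell. None rose with the replicate block (3 fell) or when control replicate 3, NS398 replicate 1 or NS398 replicate 3 was left out, and 1 rose without control replicate 2 or NS398 replicate 2.

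Of 25 genes listed as MYC targets outside the nucleolus 4 rose and 0 fell, with a median of 0.20. The share that rose was 16%, against 5.23% of all genes and 9.06% of those above a mean log2 signal of 7. SHMT2, the mitochondrial serine hydroxymethyltransferase, rose from 10810 to 19530 (0.85 ± 0.17, limma adjusted p = 0.0105), and spermidine synthase (SRM) from 1498 to 2466 (0.72 ± 0.16, adjusted p = 0.0184). NPM3, a relative of NPM1 that is itself nucleolar and so strays from the name of the list, rose by 0.50. IMPDH2, the rate-limiting enzyme of guanine nucleotide synthesis, rose by 0.45. With median centring 1 of the 25 rose and 1 fell. The number that rose was 0 without control replicate 3, 1 without control replicate 2, NS398 replicate 2 or NS398 replicate 3, 2 without NS398 replicate 1, and as high as 7 when control replicate 1 was omitted.

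Several other measures differed between the same groups, and their part in them was not tested. All 12 mitotic and S phase genes fell, with a median of -1.58, and the groups of none overlapped. Over all genes 4.85% fell, and 13.5% had every NS398 array below every control array. Above a mean log2 signal of 7 these shares were 8.66% and 21.3%. In the mitotic and S phase list the values were as follows. RRM2 (-2.36), TYMS (-2.35), CDK1 (-1.96) and MKI67 (-1.94) had the largest differences. The middle control probe set of 28S rRNA, a product of this pathway, had signals of 4272.8, 7131.8 and 3969.2 in control and 9776.1, 9425.4 and 7367.0 in NS398 arrays (0.83, limma adjusted p = 0.0293, exact permutation p = 0.1, two-sided, the smallest that 3 against 3 arrays allow). The 5′ set had the same direction but did not pass (0.83, limma adjusted p = 0.111, exact permutation p = 0.1). Its highest control, 2333.6, lay just under its lowest NS398 array, 2369.4. The 3′ set was near background (12.2 to 40.5). The 3 sets of 18S rRNA differed by 0.41 to 1.49 with overlapping groups (exact permutation p = 0.2 to 0.7). These sets read rRNA carried into a reaction primed on poly(A) and are not a measure of rRNA per cell. The 3′/5′ ratio of ACTB, a sign of RNA integrity, had means of 1.29 in control and 1.56 in NS398 arrays (exact permutation p = 0.1), and that of GAPDH 1.03 and 1.10 (p = 0.5, exact permutation test).

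Median signals per array lay between 65.0 and 80.2. The epithelial markers EPCAM (25360 in control and 26130 in NS398 arrays), KRT8, KRT18, KRT19, CDH1 and VIL1 were bright, while CDX1 and CDX2 were near background at 25.9 to 46.0. Of these 8 epithelial markers VIL1 fell (-0.71). Of 8 fibroblast markers LUM rose (from 45.5 to 215), and the summed signal of that list was 672.9 to 975.4 in control and 890.2 to 1050.3 in NS398 arrays. Of 6 leukocyte and 6 endothelial markers 0 passed limma (1 and 0 with an unadjusted p under 0.05, and 0 of either by plain limma), and PTPRC, the pan-leukocyte marker, was near background. The summed leukocyte signal was 25678.3 to 32551.3 in control and 28804.2 to 33866.9 in NS398 arrays, nearly all of it LYZ, and the endothelial sum 221.8 to 354.0 and 270.4 to 321.2.

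**Figure D4:**
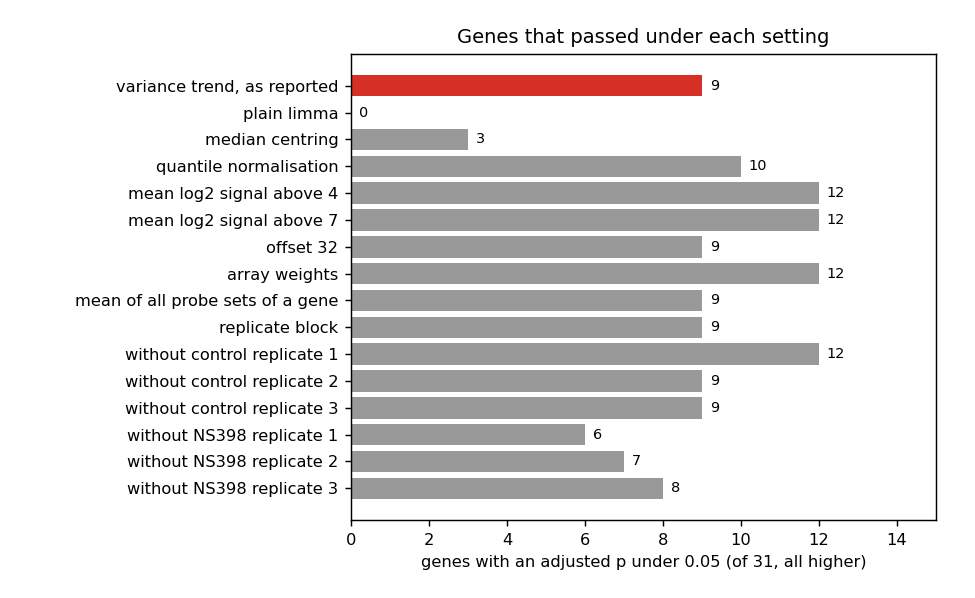
Number of the 31 genes with an adjusted p under 0.05 under the reported test (red) and each of 15 alternatives (grey), all as higher in NS398. The count is 9 as reported, 0 by plain limma, 3 with median centring and 6 to 12 elsewhere.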

How the data were processed

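Total RNA of 6 samples was hybridised to HG-U133 Plus 2.0 arrays. The deposited values are linear intensity values, 1 signal for each of 54675 probe sets, which the authors had summarised and scaled to a trimmed mean of 500 per array (2% left out at either end). They have the scale of MAS 5.0 signals, whereas the methods of the study describe gcRMA with quantile normalisation, and the labels name affy with no version. Signals were taken to log2 with no offset. Groups came from the sample titles. Probe sets were named from the platform annotation, updated through Entrez numbers (RefSeq, GRCh38.p14), and a gene was read from its brightest probe set. Of all probe sets 41097 name 1 gene, 1801 several and 11777 none. NS398 was compared with control by limma 3.58.1 (R 4.3.3), with lmFit and eBayes with trend and robust estimation, treatment as the only term and Benjamini-Hochberg adjustment over all 54675 probe sets. The study used SAM. Signals in the text are geometric means of 3 arrays and log2 differences, NS398 less control, carry the SE of the fit. Exact permutation tests were two-sided over samples (scipy 1.17.1). The procedure was run on simulated arrays with planted differences. The only condition set was on the direction and median size of the estimates, not on the calls. Each of the 36 genes could be named, and of each other list up to 4 called genes with the largest difference in each direction. Promoter sites were shown for every window with an E-box and whole windows for a pair of genes, a choice made with the values known. The members and lists were chosen with earlier results of these data known. Alternatives were plain limma, median centring, quantile normalisation, mean log2 signals above 4 or above 7, an offset of 32, array weights, averaging the probe sets of a gene, a block for the replicate number, and omitting each array in turn. The number of arrays limits the precision.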

Additional observations from a re-analysis of the deposited data

How the results depend on the processing

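Under the alternatives none of the 9 increases changed direction and 0 of the 9 passed in all 15. RRP9 and DDX21 passed in all but plain limma, and POLR1B, RRP9, RRP12, WDR12 and DDX21 without any 1 array. Plain limma called 24 probe sets in all in place of 3513, and 0 of the 31 and 0 of the 112 genes, with 12 and 28 at an unadjusted p under 0.05. With median centring 3 of the 31 and 6 of the 112 genes passed, and 30.8% of all called probe sets were higher in place of 50.7%. Leaving out 1 array gave 1826 to 3984 probe sets in all, 6 to 12 of the 31 genes and 13 to 30 of the 112. The median of the 31 genes was then 0.27 to 0.43 and the MYC difference 0.15 to 0.31. Same-numbered arrays did not deviate together (r of -0.14 to -0.06 across probe sets). This gave no sign of pairing by number, but so few arrays cannot exclude it. With the replicate block, 9 of the 31 and 17 of the 112 genes passed, and 2462 probe sets in all. Of 22 genes that did not pass, 8 did under at least 1 alternative. Causes of these shifts were not tested.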
